A study of Homo sapiens with 4 samples.

Results

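Messenger RNA of 40 genes of glycolysis and of the transcriptional response to low oxygen was compared between drug-sensitive and drug-resistant lung adenocarcinoma cells. The 40 were given as a fixed list, matched by NCBI Gene ID, out of 17490 genes listed in at least 1 of the 4 libraries. They comprised 3 transporters, 17 glycolytic enzymes, 3 regulators of glycolytic flux, 4 subunits or prolyl hydroxylases of the hypoxia-inducible factor (HIF) system and 13 other HIF targets. The cells were H1975 sensitive to osimertinib, H1975 resistant to osimertinib, HCC827 sensitive to gefitinib and HCC827 resistant to gefitinib. H1975 and HCC827 are long-established cultures driven by mutant EGFR, the receptor kinase that both drugs inhibit. Each group was 1 library, so differences between a sensitive and a resistant library have no replicates behind them. How the resistant cells were derived, whether they are 1 clone, the oxygen and glucose supply, and whether drug was present at harvest were not described in the labels.

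Glycolysis splits glucose into pyruvate in the cytosol, and lactate dehydrogenase reduces pyruvate to lactate, which regenerates the cofactor that the pathway needs. Glucose enters through facilitative transporters, and lactate leaves through monocarboxylate transporters. HIF is a pair of an alpha and a beta subunit. When oxygen is available, prolyl hydroxylases mark the alpha subunit for degradation. When oxygen falls, the alpha subunit accumulates, pairs with its partner and binds DNA at sites whose core is often ACGTG. Its known targets include most glycolytic enzymes as well as genes of vessel growth, pH control and mitochondrial turnover. HIF activity is set mainly at the protein level, which was not measured here.

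The libraries held 10934558 to 22217897 expected counts, with H1975 sequenced more deeply than HCC827. Levels are given as FPKM, which is scaled by transcript length and library total. Differences are log2 ratios of resistant to sensitive counts scaled within a line, each with a 95% interval that covers counting error only. A gene was considered where at least 1 library of the line had 1 FPKM and 20 counts, and was called higher or lower where the ratio was at least 2-fold and the interval excluded 0. The label of adenocarcinoma was checked on marker genes. Epithelial markers were listed in all 4 libraries, with summed FPKM of 2991 and 1012 in sensitive and resistant H1975 and of 6933 and 2124 in HCC827. The sum in resistant H1975 was carried mostly by KRT8, KRT18 and KRT7. EPCAM, CDH1 and KRT19 were at 150, 85.6 and 481 FPKM in sensitive H1975 and at 2.85, 0.73 and 6.82 in resistant H1975. The lung markers NKX2-1 and NAPSA were at 25.4 and 42.1 FPKM in sensitive HCC827 and at 0.08 and 0.29 in resistant HCC827. In sensitive and resistant H1975, NKX2-1 was at 7.66 and 5.97 FPKM, and NAPSA was at or below 0.32 in both. SFTPB, the other lung marker, was at most 1.21 FPKM in any library and was not called in either line. Mesenchymal markers summed to 813 and 2156 FPKM in H1975 and to 55.4 and 456 in HCC827, sums carried mostly by VIM in the resistant libraries. VIM and ZEB1 were called higher in both lines, while FN1 was called lower in H1975 with a log2 ratio of −1.45 and was at −0.23 in HCC827. Fibroblast markers summed to at most 17.3 FPKM and endothelial markers to at most 1.31. CD3E was not listed in any library and PTPRC was at most 0.5 FPKM. The blood list's sum of 81.6 to 106 FPKM was nearly all CD68. In bulk RNA, fewer cells of a kind and less RNA per cell cannot be told apart.

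In HCC827, 11 of the 38 members considered were called lower in the resistant library (28.9%) and 1 was called higher. Over all 11890 genes considered in that line, 11.0% were called lower and 7.05% higher. The members called lower were the enzymes HK2, PFKL, ALDOC and PGK1, the flux regulators PFKFB4 and PDK1, the hydroxylase EGLN3, and the HIF targets VEGFA, NDRG1, BNIP3L and ANGPTL4. The member called higher was EPAS1, an alpha subunit of HIF. In H1975, 0 of 40 members were called higher and 1, ANGPTL4, was called lower, while 3.21% of 11872 genes were called higher and 8.56% lower. The median log2 ratio of the members was −0.31 in HCC827 and 0.08 in H1975, beside medians of 0.00 over all genes considered in either line. Epithelial markers were also lower in the resistant libraries, called in 6 of 6 genes in HCC827 and 4 of 6 in H1975, and the part of epithelial and mesenchymal markers in the members' ratios was not tested. None of 5 proliferation markers was called in either line, with medians of 0.11 in H1975 and 0.13 in HCC827.

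**Figure D1:**
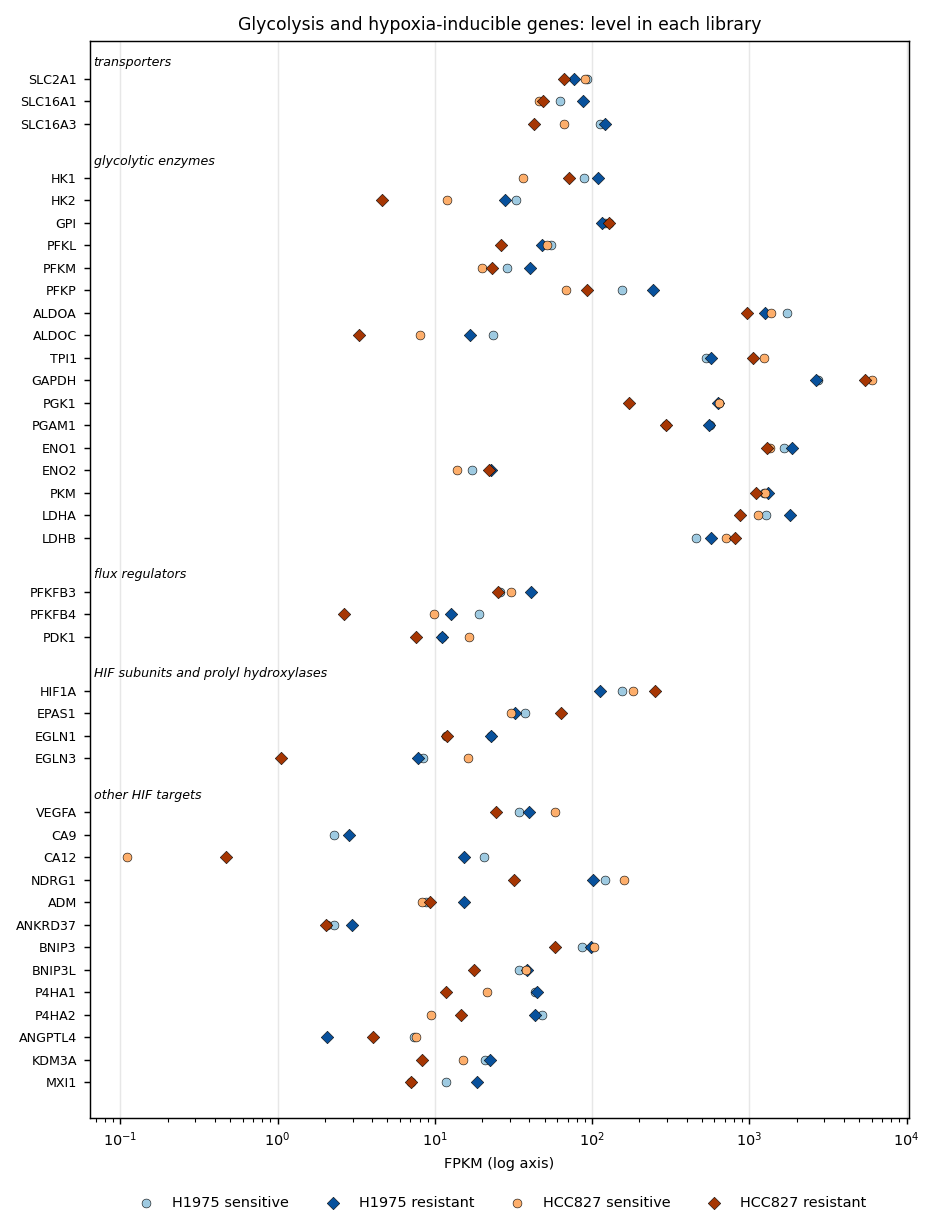
Level of each member gene in each of the 4 libraries, in FPKM on a log axis, grouped by role. Glycolytic enzymes span from 3.29 FPKM (ALDOC) to 6004 FPKM (GAPDH), and the resistant HCC827 library stands apart to the left for EGLN3, PGK1, NDRG1 and PFKFB4; CA9 was not listed in HCC827.

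Promoter sequence was set beside these calls because the list includes known HIF targets. Windows from 250 bases before to 50 bases after each RefSeq start (assembly GRCh38.p14) were searched for ACGTG on both strands. No other form of the core was searched for. On the reverse strand ACGTG reads CACGT, and both overlap in CACGTG. Of the 40 members, 36 had a window, and SLC16A1, VEGFA, NDRG1 and BNIP3L did not. The core was present in at least 1 window of 21 of 36 members (58.3%), compared with 24.9% of 27305 genes and 21.4% of 35116 single windows. The number of windows per gene was not matched. HK1 and PFKM had 7 each, and more windows give more chances of a match. Among the glycolytic enzymes it was present in 11 of 17, and among the other HIF targets in 6 of 10. It was present in 5 of the 8 members called lower in HCC827 that had a window and in 15 of 26 that were considered and not called lower, shares of 62.5% and 57.7%. The stretches below show 4 members called lower in HCC827 and then 4 that were not, written 5′ to 3′ on the gene's strand with the core in capitals on either strand. A match is a description of letters, not evidence of binding.
HK2, chr2:74834064-74834098, plus strand: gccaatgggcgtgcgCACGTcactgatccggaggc
ALDOC, chr17:28577115-28577145, minus strand: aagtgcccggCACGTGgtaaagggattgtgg
PGK1, chrX:78104031-78104084, plus strand: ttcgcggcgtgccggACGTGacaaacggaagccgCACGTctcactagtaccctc
ANGPTL4, chr19:8363906-8363940, plus strand: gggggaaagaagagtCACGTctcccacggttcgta
GAPDH, chr12:6535168-6535203, plus strand: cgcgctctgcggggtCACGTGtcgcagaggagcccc
LDHA, chr11:18394461-18394509, plus strand: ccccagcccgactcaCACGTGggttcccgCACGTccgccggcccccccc
ANKRD37, chr4:185396664-185396717, plus strand: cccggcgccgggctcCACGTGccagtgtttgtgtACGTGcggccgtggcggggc
BNIP3, chr10:131982037-131982072, minus strand: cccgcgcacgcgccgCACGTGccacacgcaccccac
In the PGK1, LDHA and ANKRD37 stretches the capitals stand at 2 places, with CACGTG read as 1 place. PGK1 had the lowest ratio of the enzymes in HCC827, while LDHA was not called in either line.

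The 3 transporters were not called in either line. SLC2A1, the main basal glucose transporter, was at 92.9 and 76.7 FPKM in sensitive and resistant H1975 and at 90.0 and 66.1 in HCC827. Its log2 ratio was −0.26 in H1975 and −0.50 (95% interval −0.57 to −0.43) in HCC827, so it was lower in the resistant library of both lines by less than 2-fold. SLC16A3, a lactate exporter, was at 112 and 121 FPKM in H1975 and at 66.6 and 42.5 in HCC827, with ratios of 0.11 and −0.70. SLC16A1, which carries lactate in either direction, was at 62.9 and 87.8 FPKM in H1975 and at 46.1 and 48.5 in HCC827, with ratios of 0.48 and 0.02. The SLC16A3 to SLC16A1 ratio was lower in both resistant libraries, by 0.37 on the log2 scale in H1975 and by 0.72 in HCC827.

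All 17 glycolytic enzymes were within 2-fold between the libraries of H1975, and 13 of 17 in HCC827. In H1975 their log2 ratios ran from −0.49 to 0.65 with a median of 0.09, and none of the 17 was called. Over all genes considered in H1975, 3.21% were called higher and 8.56% lower. In HCC827 the ratios ran from −1.95 to 0.90 with a median of −0.20, and 12 of 17 were below 0. Of these enzymes 23.5% were called lower in HCC827, beside 11.0% of all genes considered, of which 50.1% were below 0. PGK1, which makes the first ATP of the pathway, had the lowest enzyme ratio. It was at 638 and 636 FPKM in sensitive and resistant H1975 and at 639 and 172 FPKM in sensitive and resistant HCC827. The 3 other libraries therefore had almost the same level, and the resistant HCC827 library alone was low. The count went from 17045 to 4632, a log2 ratio of −1.95 (−2.00 to −1.90) or 3.86-fold lower, against 0.01 (−0.01 to 0.03) in H1975. The enzymes acting beside it in the pathway were not called. GAPDH, the step before, was at 2716 and 2635 FPKM in H1975 and at 6004 and 5444 in HCC827, with ratios of −0.03 and −0.20. PGAM1, the step after, was at 560 and 558 FPKM in H1975 and at 294 and 297 in HCC827, with ratios of 0.01 and −0.04.

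HK2, the hexokinase that is inducible in many tumours, was at 33.1 and 28.0 FPKM in H1975 and at 12.0 and 4.63 in HCC827. Its ratio was −0.24 in H1975 and −1.42 (−1.60 to −1.25) in HCC827, 2.68-fold lower. HK1, the widely expressed hexokinase, was at 88.8 and 109 FPKM in H1975 and at 36.6 and 71.2 in HCC827. It was higher in both resistant libraries, with a ratio of 0.32 in H1975 and of 0.90 (0.81 to 0.99) in HCC827, 1.87-fold and just short of the 2-fold call. HK2 made up 27.1% and 20.4% of the summed FPKM of both genes in H1975, and 24.6% and 6.11% in HCC827. The HK2 to HK1 ratio, which does not depend on library scaling, was lower by 0.55 on the log2 scale in H1975 and 5.01-fold lower in HCC827, a log2 change of −2.33 (−2.52 to −2.13).

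The phosphofructokinase genes encode the liver (PFKL), muscle (PFKM) and platelet (PFKP) types of the enzyme that commits glucose to glycolysis. PFKL was at 55.2 and 48.1 FPKM in H1975 and at 51.5 and 26.3 in HCC827. Its ratio was −0.18 in H1975 and −1.03 (−1.15 to −0.91) in HCC827, 2.04-fold lower. PFKP was at 155 and 243 FPKM in H1975 and at 68.2 and 92.2 in HCC827, with ratios of 0.65 and 0.35. PFKM had ratios of 0.50 and 0.16. The PFKP to PFKL ratio was therefore higher in both resistant libraries, by a log2 change of 0.83 in H1975 and 1.38 in HCC827, and PFKP went from 65.0% to 73.4% and from 48.8% to 65.0% of the summed FPKM of the 3 genes. ALDOC, the brain-type aldolase, was at 23.6 and 16.7 FPKM in H1975 and at 8.02 and 3.29 in HCC827. Its ratio was −0.49 in H1975 and −1.34 (−1.80 to −0.90) in HCC827, 2.53-fold lower. ALDOA, the main aldolase, was at 1729 and 1256 FPKM in H1975 and at 1367 and 960 in HCC827, with ratios of −0.45 and −0.56, so both aldolases were lower in both resistant libraries.

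The remaining enzymes were not called. ENO1, the main enolase, was at 1651 and 1879 FPKM in H1975 and at 1358 and 1291 in HCC827. PKM, the pyruvate kinase gene, was at 1236 and 1307 in H1975 and at 1263 and 1095 in HCC827. LDHA, which favours lactate formation, was at 1279 and 1805 FPKM in H1975 and at 1132 and 878 in HCC827. Its ratio was 0.51 (0.50 to 0.52) in H1975 and −0.41 (−0.44 to −0.39) in HCC827, so resistant cells were above sensitive cells in one line and below them in the other. LDHB, its partner subunit, had ratios of 0.33 and 0.14. LDHB was 38.4% and 47.9% of the summed FPKM of LDHA and LDHB in HCC827 and 26.4% and 24.1% in H1975. TPI1 had ratios of 0.10 and −0.30, GPI of −0.04 and −0.05, and ENO2 of 0.41 and 0.62. HK2, GPI, PGAM1, ENO1 and ENO2 had expected counts that were not whole in both lines, and PFKM, PFKP, ALDOA, ALDOC and LDHA in H1975, as RSEM gives where it divides reads between near-identical genes. Their values are uncertain to that extent.

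**Figure D2:**
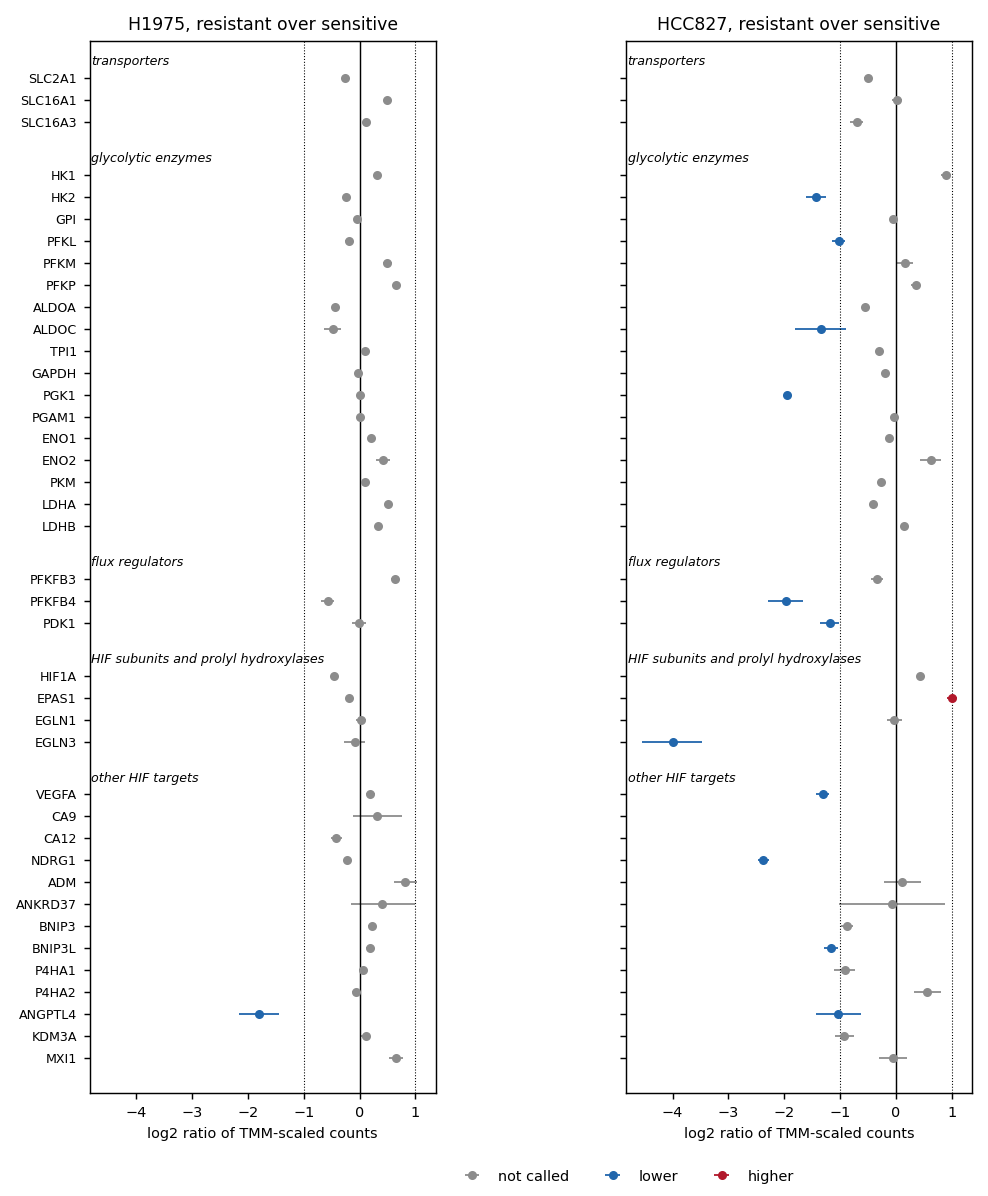
Log2 ratio of resistant to sensitive counts for each member in H1975 (left) and HCC827 (right), with 95% counting intervals as bars and dotted lines at 2-fold. In HCC827 the members called lower (blue) reach −3.99 for EGLN3 and 1 member, EPAS1, is called higher (red), whereas in H1975 ANGPTL4 alone is called; CA9 and CA12 have no HCC827 point because they were below the minimum level.

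Of the flux regulators, 2 of 3 were called lower in HCC827 and 0 of 3 in H1975. Over all genes considered, 11.0% were called lower in HCC827 and 8.56% in H1975. PFKFB4, a bifunctional enzyme that sets the level of the activator of phosphofructokinase, was at 19.0 and 12.7 FPKM in H1975 and at 9.92 and 2.66 in HCC827. Its ratio was −0.57 (−0.68 to −0.45) in H1975 and −1.97 (−2.30 to −1.66) in HCC827, 3.93-fold lower on counts of 397 and 106. PFKFB3, the family member with the stronger kinase activity, was at 26.1 and 40.8 FPKM in H1975 and at 30.4 and 25.1 in HCC827, with ratios of 0.63 and −0.33. The PFKFB4 to PFKFB3 ratio was lower in the resistant library of both lines, with log2 changes of −1.20 (−1.33 to −1.06) and −1.64 (−1.97 to −1.31). PDK1, a mitochondrial kinase that inhibits pyruvate dehydrogenase, was at 11.2 and 11.1 FPKM in H1975 and at 16.6 and 7.54 in HCC827. Its ratio was −0.01 (−0.13 to 0.12) in H1975 and −1.19 (−1.37 to −1.02) in HCC827, 2.28-fold lower.

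The HIF alpha subunits and their hydroxylases did not share 1 direction. HIF1A, the broadly expressed alpha subunit, was at 156 and 113 FPKM in sensitive and resistant H1975 and at 181 and 252 in HCC827. Its ratio was −0.45 (−0.49 to −0.42) in H1975 and 0.43 (0.39 to 0.47) in HCC827, not called in either. EPAS1, the second alpha subunit, was at 37.6 and 32.5 FPKM in H1975 and at 30.3 and 63.3 in HCC827. Its ratio was −0.18 in H1975 and 1.01 (0.92 to 1.09) in HCC827, 2.01-fold higher and close to the threshold. In HCC827 both alpha subunit mRNAs were thus higher in the resistant library, and in H1975 both were lower. EGLN3, an oxygen-sensing prolyl hydroxylase that is itself HIF-inducible, was at 8.42 and 7.83 FPKM in H1975 and at 16.3 and 1.06 in HCC827. Its counts in HCC827 were 486 and 32, a log2 ratio of −3.99 (−4.56 to −3.48) or 15.9-fold lower, the lowest ratio of any member, against −0.09 (−0.27 to 0.09) in H1975. EGLN1, the main oxygen-sensing hydroxylase, had ratios of 0.02 and −0.03. EGLN3 was 58.0% and 8.11% of the summed FPKM of EGLN1 and EGLN3 in HCC827, and 27.1% and 25.5% in H1975, although EGLN1 was modelled with a different transcript length in the 2 lines.

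**Figure D3:**
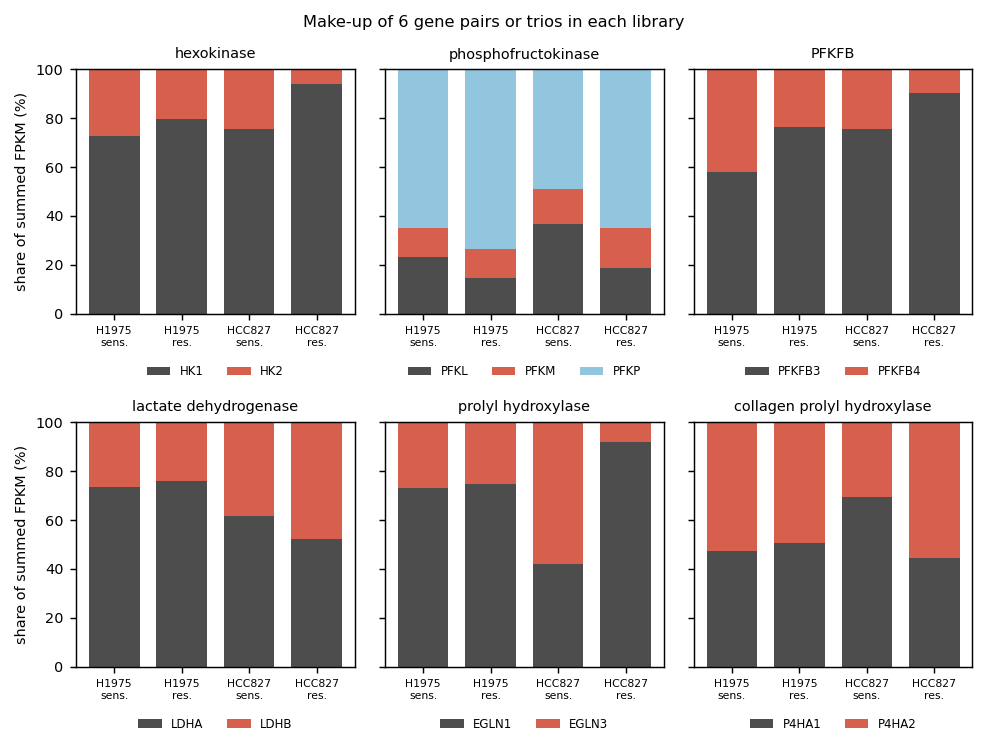
Share of the summed FPKM held by each gene of 6 small families in the 4 libraries, as stacked bars from 0 to 100%. HK2, PFKL and PFKFB4 are smaller shares in the resistant library of both lines, and EGLN3 is 58.0% and 8.11% in HCC827.

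Among the other HIF targets, resistant HCC827 cells had lower NDRG1, VEGFA, BNIP3L and ANGPTL4, and resistant H1975 cells lower ANGPTL4. In HCC827, 4 of the 11 considered were called lower (36.4%), 9 of 11 were below 0 and the median was −0.91. Over all genes considered in HCC827, 11.0% were called lower and 50.1% were below 0. In H1975, 1 of 13 was called lower, 4 of 13 were below 0 and the median was 0.18. Over all genes considered in H1975, 8.56% were called lower and 49.9% were below 0. CA9 and CA12 were not among the 11: CA9 was not listed in either HCC827 library, and CA12 had 5 and 22 counts there. NDRG1, a stress-responsive gene, was at 121 and 102 FPKM in H1975 and at 160 and 32.1 in HCC827. Its HCC827 counts of 5483 and 1110 gave a ratio of −2.37 (−2.47 to −2.28), 5.18-fold lower, against −0.23 in H1975. VEGFA, the main growth factor for blood vessels, was at 34.1 and 39.6 FPKM in H1975 and at 58.3 and 24.7 in HCC827, with ratios of 0.19 and −1.31 (−1.43 to −1.20), 2.49-fold lower in HCC827. BNIP3L, a receptor for the removal of mitochondria by autophagy, was at 34.5 and 38.8 FPKM in H1975 and at 38.2 and 17.7 in HCC827, with ratios of 0.18 and −1.16 (−1.29 to −1.03), 2.24-fold lower in HCC827. Its relative BNIP3 was at 85.7 and 98.5 FPKM in H1975 and at 103 and 58.2 in HCC827, with ratios of 0.21 and −0.88 (−0.99 to −0.77), just under the 2-fold call.

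ANGPTL4, a secreted inhibitor of lipoprotein lipase, was the single member called lower in both lines. It was at 7.38 and 2.06 FPKM in H1975 and at 7.64 and 4.02 in HCC827. The sensitive libraries were therefore at nearly the same level and both resistant libraries were below them. Its ratio was −1.80 (−2.16 to −1.45) in H1975, 3.49-fold lower on counts of 305 and 87, and −1.03 (−1.44 to −0.63) in HCC827, 2.05-fold lower on counts of 156 and 80. Among the other targets, KDM3A, a histone demethylase, and P4HA1, a collagen prolyl hydroxylase subunit, had ratios of −0.93 and −0.91 in HCC827 and of 0.11 and 0.06 in H1975. P4HA2, a second collagen prolyl hydroxylase, went the other way from P4HA1 in HCC827, with a ratio of 0.56, and it made up 30.6% and 55.5% of the summed FPKM of both, compared with 52.6% and 49.4% in H1975. ADM, the precursor of the vasodilator adrenomedullin, had ratios of 0.82 (0.62 to 1.03) in H1975 and 0.11 in HCC827. MXI1 and ANKRD37 had ratios of 0.66 and 0.41 in H1975 and of −0.05 and −0.07 in HCC827, and CA9 and CA12 had ratios of 0.32 (−0.12 to 0.77) and −0.41 in H1975.

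Set against the glycolytic enzymes, the other HIF targets of HCC827 had the lower median, −0.91 against −0.20. A ratio below 0 was found in 81.8% of these targets, 70.6% of the enzymes and 50.1% of all genes considered. The enzymes held 2.55% of counts in sensitive and 2.17% in resistant HCC827 cells, while the other HIF targets held 0.120% (0.118 to 0.122) and 0.0493% (0.0480 to 0.0506). NDRG1 alone gave 5483 of the 13144 counts of these targets in sensitive HCC827 and 1110 of the 5439 in resistant HCC827. In H1975 the enzymes held 2.11% and 2.25%, and the other HIF targets 0.125% in both libraries. Summed FPKM of the other HIF targets was 431 and 190 in HCC827 and 440 and 447 in H1975. Within the enzymes of HCC827 the differences were uneven: PGK1, HK2, ALDOC and PFKL were at least 2-fold lower, 13 enzymes were not called, and HK1, ENO2, PFKP, PFKM and LDHB were above 0. No test of the 2 classes was made, since the genes are not replicates. The 4 members nearest the threshold on the inner side in HCC827 were EPAS1, PFKL, ANGPTL4 and BNIP3L, and on the outer side KDM3A, P4HA1, HK1 and BNIP3.

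**Figure D4:**
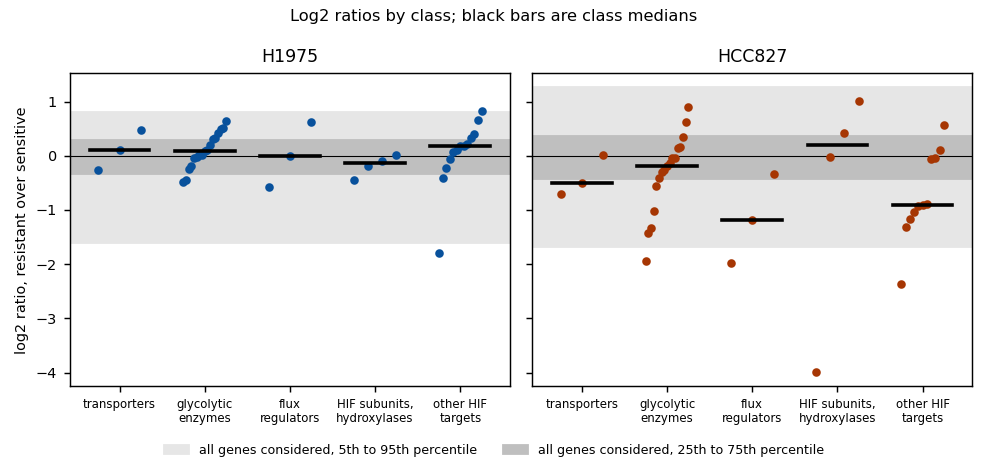
Log2 ratio of every considered member by role in H1975 (left) and HCC827 (right), with black bars at class medians and shaded bands at the central percentiles of all genes considered. In HCC827 the other HIF targets have a median of −0.91 and the glycolytic enzymes one of −0.20, and in H1975 both class medians are above 0.

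Between the lines, 38 members were considered in both. Of these, 7 were above 0 in both, 12 were below 0 in both, 16 were above 0 in H1975 and below 0 in HCC827, and 3 were the reverse, namely HIF1A, EPAS1 and P4HA2. The ratio was larger in size in HCC827 for 26 of 38. Of the same 38, 33 were within 1.5-fold in H1975 and 20 in HCC827. Ratios over all genes considered were also more widely spread in HCC827, with lower and upper quartiles of −0.44 and 0.37, against −0.33 and 0.28 in H1975. The matching shares over all genes were not counted, so whether these counts are particular to the members cannot be told. The drugs differ between the lines as well as the cells, so line and drug cannot be told apart. With the lines as replicates, edgeR's quasi-likelihood test with the cell line as a block called 0 of 39 members tested, and 0 of 13445 genes (0%). Without adjustment, 1305 genes and 2 members had p below 0.05: ANGPTL4 with a log2 fold change of −1.40 (SE 0.41, adjusted p = 0.414) and PFKFB4 with −1.24 (SE 0.43, adjusted p = 0.481). DESeq2 called 461 of 13406 genes (3.44%) and 0 of 39 members. Without adjustment, 1368 of all genes and 7 of the members had p below 0.05 by DESeq2. With 1 library per group and the cell line as a block, these p-values rest partly on how far ratios differ between the lines. They also rest on the other genes, since both methods draw each gene's variation towards that of all genes tested. The spread between the lines mixes cell line, drug and technical differences, which cannot be told apart.

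Related genes were taken from 6 lists of other pathway genes, 103 in all. In H1975, 3 of 87 considered were called higher (3.45%) and 9 lower (10.3%), and in HCC827 8 of 85 were called higher (9.41%) and 16 lower (18.8%). Over all genes considered, 3.21% were called higher and 8.56% lower in H1975, and 7.05% and 11.0% in HCC827. The H1975 shares were thus near those of all genes. Among other glucose uptake and glycolysis genes, 7 of 18 were called lower and 1 higher in H1975, and 4 of 17 lower and 2 higher in HCC827. SLC2A6, a transporter of the glucose transporter family, was called higher in both lines, at 17.0 and 60.4 FPKM in H1975 and at 1.5 and 5.11 in HCC827, with ratios of 1.84 and 1.79. TXNIP, a glucose-responsive inhibitor of glucose uptake, was called lower in both lines, at 193 and 85.8 FPKM in H1975 and at 97.6 and 14.6 in HCC827, with ratios of −1.16 and −2.77. Its relative ARRDC4 followed with ratios of −1.06 and −2.82, and SLC16A4, a monocarboxylate transporter relative, with −1.22 and −1.17. HKDC1, a further hexokinase, was called lower in H1975 with a ratio of −1.50 and was at 0.63 in HCC827, so its order was opposite in the lines. In HCC827 SLC2A3 was called higher, at 0.43 and 1.03 FPKM, and SLC2A10 lower, at 1.08 and 0.16 FPKM.

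The 7 genes of the pentose phosphate pathway, which branches from glycolysis, had medians of −0.07 (H1975) and −0.24 (HCC827) on the log2 scale. In each line 1 of the 7 was called lower and 0 higher. Ratios were below 0 for 4 of 7 in H1975 and 7 of 7 in HCC827. None of the 13 genes for pyruvate entry into mitochondria was called in either line, with medians of 0.07 and 0.23. Of the 8 glycogen genes, 0 were called in H1975 and 2 were called lower in HCC827: PYGB, a glycogen phosphorylase, with a ratio of −1.84, and PPP1R3C, with −1.75. In the list of other HIF pathway genes, 1 of 9 was called in each line, both higher: CUL2, a scaffold of the ligase that removes HIF alpha, in H1975 with a ratio of 1.06, and CITED2, a competitor of HIF, in HCC827 with 1.16.

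The list of further hypoxia-inducible genes had 1 gene called higher and 1 lower of 32 in H1975, and 5 higher and 9 lower of 31 in HCC827 (29.0% lower and 16.1% higher), with medians of −0.06 and −0.48. DDIT4, an inhibitor of mTOR signalling, was at 59.3 and 54.9 FPKM in H1975 and at 296 and 26.0 in HCC827, with ratios of −0.10 and −3.57. IGFBP3, which binds insulin-like growth factors, was called lower in both lines, at 31.6 and 9.32 FPKM in H1975 and at 220 and 57.9 in HCC827. Other genes called lower in HCC827 included PPFIA4 with a ratio of −2.00 and KDM4C with −1.95. Genes called higher there included EDN1, the endothelin precursor, with 2.84, which was also called higher in H1975 with 1.36. TMEM45A was higher on 1 and 41 counts, so its ratio of 5.29 has an interval from 2.73 to 10.6. Hypoxia-inducible genes therefore lay on both sides of 0 in HCC827.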

How the data were processed

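Per the labels, total RNA from the 4 cell samples was extracted with TRIzol and made into libraries with an MGI mRNA kit. Per the submitters' processing notes, HISAT2, Bowtie2, RSEM and hg19 were used; their versions and roles, and any use of strand, were not stated there. The authors deposited, by NCBI Gene ID, expected counts from RSEM, without normalization, and FPKM values, scaled by length and library total. Genes not listed in a file were taken as 0. Symbols came from RefSeq GRCh38.p14, without coordinates.

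Expected counts were rounded to whole numbers. Libraries were scaled within a line by TMM (edgeR 4.0.16, R 4.3.3), and a ratio used no prior count. Intervals are exact Clopper-Pearson intervals of the conditional binomial, which cover counting error only, since reads are not unique molecules. A library at 0 was set to 3 counts, or to the count equal to 0.01 FPKM where larger. Isozyme ratio changes used log-normal count intervals. Both lines were tested together by edgeR's quasi-likelihood method with the cell line as a block and Benjamini-Hochberg adjustment at 0.05, two-sided, with DESeq2 1.42.0 as an alternative. The methods were tested on simulated data.

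Named genes were members called in either line, HIF subunits and hydroxylases, and the most abundant enzymes, with others by range; from each other list, at most 4 per direction and line. Some genes that this rule names are not reported here. Members and lists were chosen with earlier results of these data known. Alternatives were other scalings and filters, a 1.5-fold threshold, log2(FPKM + 1), other class borders and no block.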

Additional observations from a re-analysis of the deposited data

How the results depend on the processing

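Each group had 1 library, so leaving out a replicate was not possible, and leaving out a line leaves no residual degrees of freedom. Under the 5 alternatives that change a ratio, 54 of 60 values of the members called in HCC827 kept the call, 6 fell below 2-fold and 0 changed sign, and the 5 values of ANGPTL4 in H1975 kept it. The 6 were PFKL and ANGPTL4 under library totals (−0.97 and −0.98), the FPKM ratio (−0.97 and −0.93) and log2(FPKM + 1) (−0.94 and −0.78), so 9 members instead of 11 were called lower under the first and second of these. At 1.5-fold, 15 were called lower in HCC827. Members called higher in HCC827 numbered 2 with no filter, where CA12 was admitted, and 3 at 1.5-fold, against 1. In H1975, 4 were called higher at 1.5-fold against 0. The HCC827 median of the glycolytic enzymes moved from −0.20 to −0.14 under library totals, the FPKM ratio and log2(FPKM + 1), and to −0.30 when transporters and flux regulators were counted with the enzymes. Over both lines, 461 genes were called by DESeq2 and 9 with no filter, against 0; 0 members were called in any of these. Without the cell line block 0 genes were called. No paired analysis by replicate number was possible because the labels carry no replicate numbers. The causes were not tested. TMM over all listed genes was added after the data were seen and changed no count of called members. Depth limits genes with few counts, such as CA9, CA12 and ANKRD37, most in HCC827.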

Other observations

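The sensitive libraries differed between the lines in single members, set side by side here without a test because annotation, depth and drug differ between the lines. GAPDH was at 2716 FPKM in sensitive H1975 and 6004 in sensitive HCC827, and TPI1 at 534 and 1245. ALDOC was at 23.6 and 8.02, and HK2 at 33.1 and 12.0. CA12 was at 20.5 and 0.11 FPKM, and CA9 was at 2.30 in H1975 and not listed in HCC827. PGK1 was at 638 and 639 FPKM in the sensitive libraries.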
